A study of Mus musculus with 24 samples.

Results

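Liver RNA was compared between mice that lack Egfr in hepatocytes (KO, n = 3) and wild-type mice (WT, n = 3), all killed 1 h after an overdose of acetaminophen at 500 mg/kg. The 6 libraries were chosen by their labels, KO 1 h and WT 1 h, out of 24 libraries in the series, which also holds 3 KO and 3 WT mice at each of 0, 3 and 12 h. Each library is bulk RNA of the liver of 1 mouse. The labels call the deletion hepatocyte-specific and give neither the driver of the recombinase, the exons removed, nor the strain, sex or age of the mice. They do not say what the 0 h mice received. No untreated mice were analysed at 1 h, so both groups carry the drug and the comparison is of genotypes under drug. The 6 h and 24 h mice named in the series text are not analysed here.

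EGFR is a receptor tyrosine kinase that binds EGF, TGF-alpha and related ligands and signals through RAS, ERK, PI3K and STAT proteins. Hepatocytes carry it in large amounts, and it takes part in liver regeneration. Acetaminophen is conjugated in the liver to glucuronide and sulfate, and a part is oxidised, mainly by CYP2E1, to a reactive quinone imine that consumes glutathione and binds mitochondrial proteins. PPARA is a nuclear receptor that drives the genes of fatty acid oxidation and ketone body synthesis in hepatocytes, in fasting above all.

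Counts on genes ran from 5.69 to 7.48 M in the KO libraries and from 5.64 to 6.97 M in the WT libraries, with 39.7% to 43.0% of them on mitochondrial rRNA genes. Levels are given in CPM, counts scaled to a common library size with TMM factors, which is not corrected for gene length. Between replicates of a group the spread over genes was 5.08 to 12.1 times what counting alone gives, so no library was a copy of another. Albumin (Alb) stood at 24530 to 28860 CPM in KO livers and 23396 to 25725 CPM in WT livers. Of the 14 hepatocyte markers 0 were called, against 0.492% of all tested genes. In whole liver, fewer cells of a type and less RNA per cell cannot be told apart.

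The level of Egfr did not separate the 6 libraries. It was 335, 136 and 155 CPM in KO replicates 1, 2 and 3, against 332, 407 and 400 CPM in WT replicates 1, 2 and 3. The library labelled KO 1 h replicate 1 thus lay just above the lowest WT library, and KO replicates 2 and 3 lay below every WT library. At 0 h KO livers ran from 59.5 to 110 CPM and WT livers from 334 to 461 CPM. At 3 h KO livers ran from 82.3 to 271 CPM and WT livers from 303 to 633 CPM. At 12 h KO livers ran from 43.0 to 117 CPM and WT livers from 203 to 262.5 CPM. All KO livers thus lay below all WT livers of the same time at 0, 3 and 12 h. The library labelled KO 1 h replicate 1 lay above every other KO library of the series. The difference in mean log2(CPM + 1) at 1 h, KO minus WT, was -0.98 (exact permutation test, two-sided, p = 0.2, where 20 relabelings cannot go below 0.1). In the fit across all genes Egfr had a log2 fold change of -0.87 (SE 0.43, adjusted p = 0.54, edgeR quasi-likelihood test with Benjamini-Hochberg adjustment). Without KO replicate 1 the log2 fold change was -1.39 and its adjusted p 0.235, and the exact permutation p was 0.1, the smallest those libraries allow. The deleted exons are not stated, so reads from outside them say nothing of the deletion. Counts of calls, and the list and gene values that move most, are therefore also given without the library labelled KO 1 h replicate 1.

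KO replicates 2 and 3 differed from the other libraries in another way. When KO replicate 1 was left out and the filter on low counts redrawn, 46 genes were called higher in KO, and 22 of these were higher in both KO replicates 2 and 3 than in each of the other 22 libraries of the series. The 22 were picked for this pattern after their values were seen. They include Dmbt1, Muc1 and Krt19 from the list of bile duct and gallbladder markers and Acta2 and Des from that of stellate cells and fibroblasts. The secreted mucosal glycoprotein Dmbt1 had 0.348, 250 and 85.9 CPM in KO replicates 1 to 3, against 0.134, 0.571 and 0.826 CPM in WT livers. The membrane mucin Muc1 had 0.348, 20.3 and 5.61 CPM in KO livers, against 0.402, 0.713 and 0.331 CPM in WT livers. The duct keratin Krt19 had 0.174, 6.76 and 3.06 CPM in KO livers, against 0.402, 0.143 and 0.331 CPM in WT livers. Smooth muscle actin Acta2 had 0.174, 19.9 and 5.48 CPM in KO livers, against 0.268, 0.571 and 1.98 CPM in WT livers, and the smooth muscle myosin Myh11 had 4.01, 90.4 and 16.6 CPM, against 3.21, 3.42 and 8.92 CPM. In these genes KO replicate 1 lay far below KO replicates 2 and 3. Other bile duct markers were mixed. Epcam had 0.348, 3.649 and 1.403 CPM in KO livers, against 0.536, 0.571 and 0.661 CPM in WT livers. Krt7 had 0.348, 1.081 and 1.148 CPM, against 0.268, 0.143 and 0.165 CPM. Both, at low levels, were higher in KO replicates 2 and 3 than in the other 1 h libraries. Cldn7 and Cftr stood above the other 1 h libraries in KO replicate 2 alone. Spp1 did not follow, and Sox9 lay above WT in all KO livers, KO replicate 1 included. Spp1 had 12.0, 10.0 and 3.83 CPM in KO livers, against 9.78, 7.13 and 4.79 CPM in WT livers. Sox9 had 8.54, 9.73 and 8.67 CPM, against 7.10, 7.56 and 5.29 CPM. On the stellate cell and fibroblast list, members besides Acta2 and Des did not share the pattern. Dcn had 76.1, 87.2 and 72.0 CPM in KO livers, against 85.0, 71.9 and 78.3 CPM in WT livers. Lrat had 13.1, 10.1 and 8.42 CPM, against 7.23, 7.99 and 8.76 CPM. Col1a2 and Col3a1 stood above the other 1 h libraries in KO replicate 2 alone. Summed over the 14 markers of bile duct and gallbladder epithelium the groups overlapped, at 1267 to 1732 CPM in KO and 1193 to 1368 CPM in WT, because Pigr and Clu, which hepatocytes also express, make up most of the sum. Pancreatic acinar markers were at 0 in all 6 libraries for 8 of 14 genes. The part of this signal in the differences below was not tested. Values without KO replicates 2 and 3 are given beside several of the lists.

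**Figure D1:**
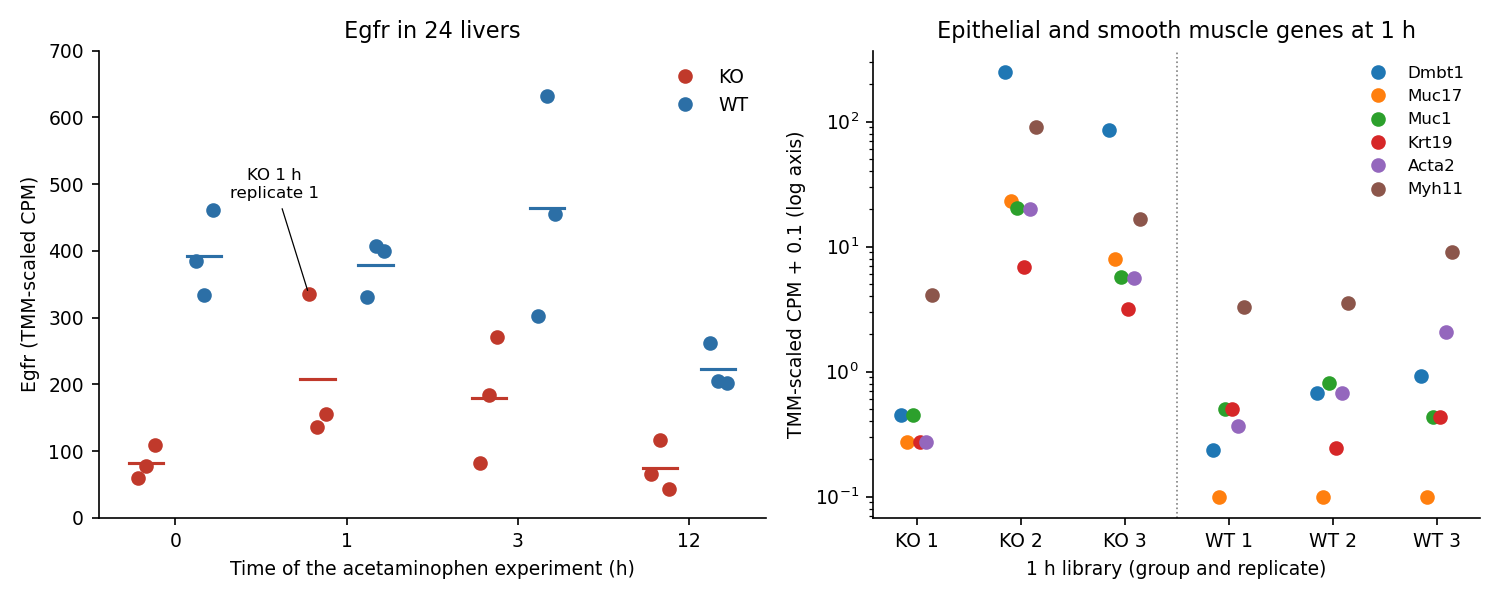
Left, Egfr in TMM-scaled CPM for each of the 24 livers by time, with KO left of WT and a line at each mean of 3 mice; the library labelled KO 1 h replicate 1, at 335 CPM, lies among the WT livers. Right, 6 epithelial and smooth muscle genes in the 6 libraries at 1 h, as CPM + 0.1 on a log axis; KO replicates 2 and 3 stand above KO replicate 1 and the WT livers.

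Of 13204 genes tested, 65 were called (0.492%, edgeR quasi-likelihood test, adjusted p under 0.05). Of these, 18 were higher (0.136%) and 47 lower (0.356%) in KO livers. An unadjusted p under 0.05 was reached by 1289 genes. The log2 fold changes of the 65 genes ran in size from 0.46 to 7.79, and 10 of them were under 1.5-fold. In 63 of the 65 the 3 KO livers did not overlap the 3 WT livers. Over all tested genes the KO livers lay wholly above WT in 7.17% and wholly below in 7.72%, and the median log2 fold change was 0.01.

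Many of these calls were lost when a single library was left out. Leaving out KO replicate 2 kept 15 of the 65 calls, and leaving out WT replicate 3 kept 24. With WT replicate 1 left out 40 were kept, with KO replicate 3 left out 44, with KO replicate 1 left out 47 and with WT replicate 2 left out 55. The sign of all 65 was the same in each of these 6 fits. Without KO replicate 1 there were 85 calls (0.644%), 29 higher (0.22%) and 56 lower (0.424%). The 47 shared calls are 72.3% of the 65 and 55.3% of the 85. Without KO replicates 2 and 3, which leaves the library labelled KO 1 h replicate 1 alone and assumes that it varies like the other groups, there were 9 calls (0.0682%; 5 higher, 0.0379%, and 4 lower, 0.0303%), 6 of them among the 65. The 15 genes called whichever of the 6 libraries was left out are Plin2, Ehhadh, Gk, Mgll, Lipa, Hspa1b, Grb14, Dgkh, Hykk, Atxn2, Gm31388 and Gm53285, which were lower in KO, and Abcg5, Abcg8 and Cyp3a25, which were higher. These 15 were also called whichever of all 24 libraries was left out. Of the 15, only Atxn2 was not called when the 6 libraries were fitted alone.

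**Figure D2:**
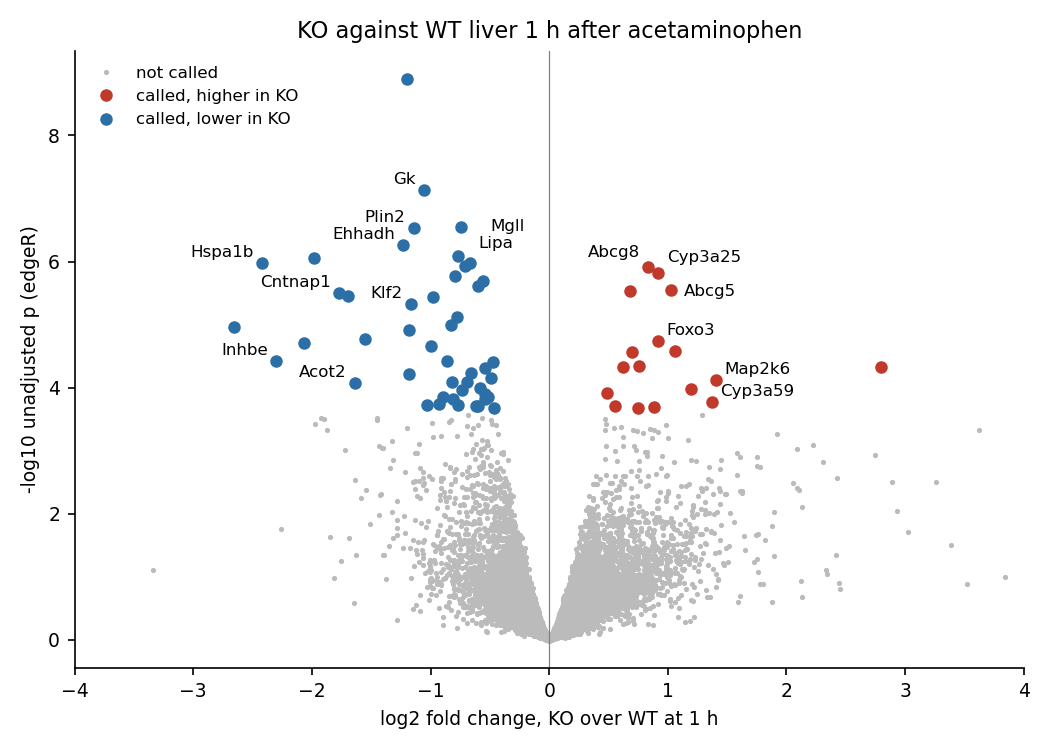
Each point is 1 of 13202 tested genes, with the log2 fold change of KO over WT at 1 h across and the -log10 unadjusted p of the edgeR test upwards; filled circles mark genes called at an adjusted p under 0.05, red for higher and blue for lower in KO. Of 2 genes beyond the axis limit of 4, 1 was called (Dmbt1, 7.79); the lower side holds more calls than the higher side, 47 against 18.

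Among the 43 pathway lists, that of PPARA targets and fatty acid oxidation held the most lower calls. It had 29 tested members, of which 4 fell (Plin2, Ehhadh, Acot2 and Hadha), against 0.356% of all tested genes. Of the others 0 rose and 25 did not pass. Of the 29, 28 had a log2 fold change below 0, with a median of -0.38 against 0.01 over all genes. In 18 the 3 KO livers lay wholly below the 3 WT livers, against 7.72% over all tested genes. Without KO replicate 1 the median was -0.48 with 4 lower calls, and with KO replicate 1 as the only KO liver it was -0.32 with 1 lower call, Plin2. At 0, 3 and 12 h, in other mice, the same list had medians of 0.06, 0.22 and 0.12 and no call in either direction.

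Plin2, the protein that coats lipid droplets in hepatocytes, had 127, 137 and 182 CPM in KO livers, against 314, 252 and 421 CPM in WT livers. All KO livers lay below all WT livers, including the library with the WT-like Egfr level. Its log2 fold change was -1.14 (SE 0.17, adjusted p = 0.000983), and its adjusted p ran from 0.000109 to 0.0152 with each of the 6 libraries left out in turn. Ehhadh, the peroxisomal bifunctional enzyme of fatty acid oxidation, had 770, 722 and 786 CPM in KO livers, against 1802, 1466 and 2078 CPM in WT livers. The KO livers lay close together and did not overlap WT. Its log2 fold change was -1.23 (SE 0.19, adjusted p = 0.00144, and 0.00055 to 0.016 with a library left out).

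Acot2, a mitochondrial acyl-CoA thioesterase, had 9.76, 10.9 and 16.6 CPM in KO livers, against 42.9, 24.96 and 49.9 CPM in WT livers, with a log2 fold change of -1.64 (SE 0.32, adjusted p = 0.0246). Acot2 is close in sequence to Acot1, which stood at 22.7, 27.3 and 48.6 CPM in KO and 78.9, 54.4 and 78.3 CPM in WT, and reads may have been split between them. Hadha, the alpha subunit of the mitochondrial trifunctional protein, had 271, 231 and 229 CPM in KO livers, against 300, 359 and 367 CPM in WT livers, with a log2 fold change of -0.49 (SE 0.11, adjusted p = 0.0219). The KO and WT livers did not overlap in either gene, but each call held in only 2 of the 6 fits with a 1 h library left out. Acot2 had an adjusted p of 0.0825 without KO replicate 1, 0.164 without KO replicate 2, 0.0846 without WT replicate 1 and 0.172 without WT replicate 3. Hadha had 0.165 without KO replicate 2, 0.112 without KO replicate 3, 0.0759 without WT replicate 2 and 0.215 without WT replicate 3.

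Members that did not pass were mostly below WT too. Acadl, the long-chain acyl-CoA dehydrogenase, had a log2 fold change of -0.45 (adjusted p = 0.0631), and 0.0444 without KO replicate 1. Creb3l3, a membrane-bound transcription factor of hepatic lipid metabolism, had -0.39 (0.104). The carnitine palmitoyltransferase Cpt1a had -0.31 (0.378) and the hormone Fgf21 -1.69 (0.394). Both were picked as familiar PPARA targets after their values were seen. Ppara itself, the receptor, had 180, 128 and 100 CPM in KO livers, against 213, 163 and 216 CPM in WT livers. KO replicate 1 lay within the WT range for it. Its log2 fold change was -0.54 (SE 0.16, adjusted p = 0.156) with all libraries and -0.79 (adjusted p = 0.00904) without KO replicate 1.

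**Figure D3:**
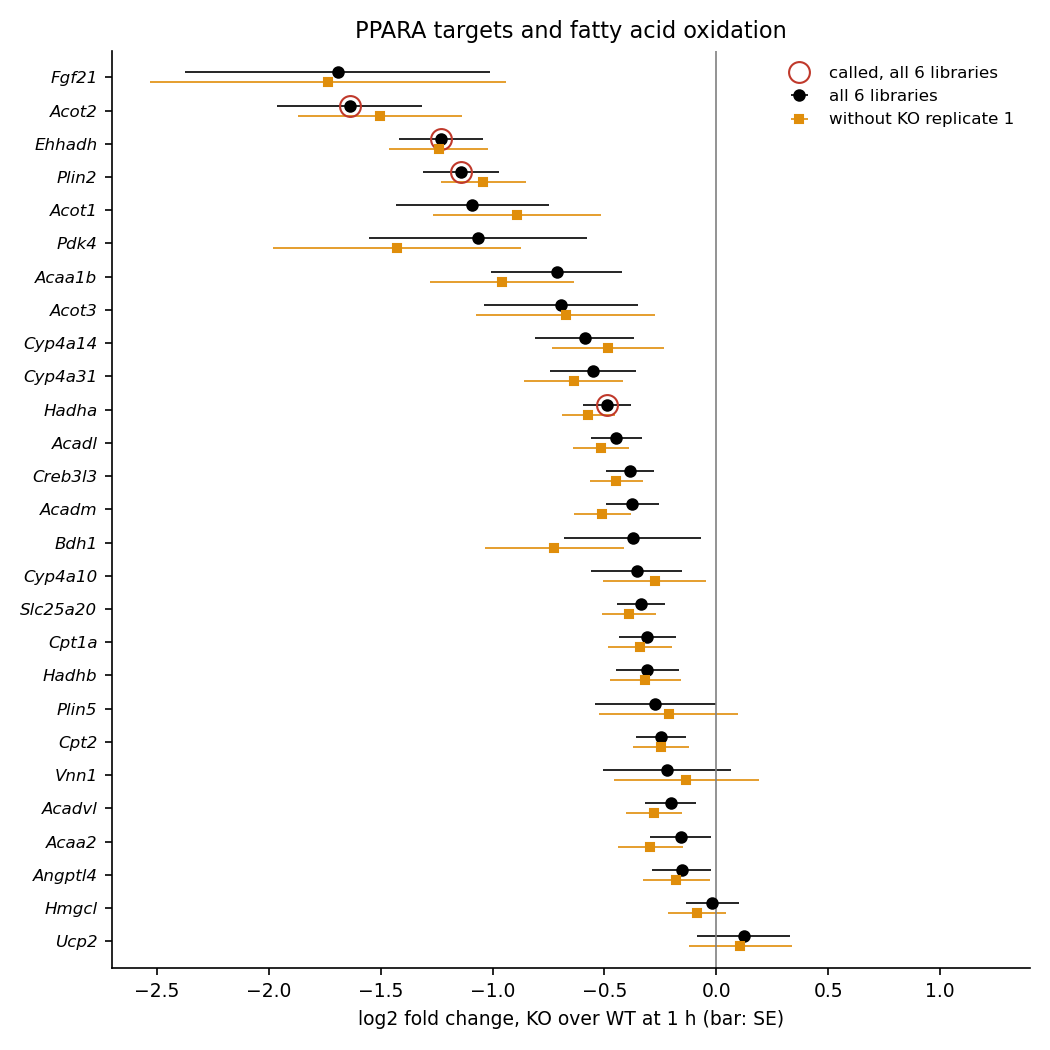
Log2 fold change of KO over WT at 1 h for 27 of the 29 tested PPARA targets and fatty acid oxidation genes, with all 6 libraries (black circles) and without KO replicate 1 (orange squares); bars are SE and rings mark the 4 calls with all libraries. All members drawn but Ucp2 lie below 0 in both fits.

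Further called genes of lipid and sugar use lie outside that list and are named here after their values were seen. Gk, glycerol kinase, had 144, 91.8 and 96.3 CPM in KO livers, against 217, 199 and 272 CPM in WT livers. The groups did not overlap, and KO replicate 1 was the KO liver nearest to WT. Its log2 fold change was -1.05 (SE 0.15, adjusted p = 0.000487) with all libraries and -1.29 (9.37e-06) without KO replicate 1. Mgll, monoacylglycerol lipase, had 56.8, 58.9 and 54.2 CPM in KO livers, against 103, 86.7 and 95.0 CPM in WT livers, with a log2 fold change of -0.74 (SE 0.11, adjusted p = 0.000983). Lipa, lysosomal acid lipase, had 75.1, 53.1 and 58.4 CPM in KO livers, against 113, 88.3 and 116 CPM in WT livers, with -0.77 (SE 0.13, adjusted p = 0.00148). In all 3 genes the lowest WT liver lay above the highest KO liver.

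The peroxisome division factor Pex11a fell by 0.86 on the log2 scale (adjusted p = 0.0147, 0.136 without KO replicate 2 and 0.158 without WT replicate 3). The peroxisomal protein Hsdl2 fell by 0.60 (0.00216, and 0.0558 without KO replicate 2). Elovl5, an elongase of polyunsaturated fatty acids, fell by 0.77 (0.00464, and 0.0752 without KO replicate 2). It was the only call among 18 tested lipogenesis genes, against 0.492% of all tested genes. Nceh1, a neutral cholesterol ester hydrolase, fell by 0.62 (0.0424) and the lactate and ketone body carrier Slc16a1 by 0.52 (0.0351). Both calls were lost without KO replicate 2, KO replicate 3 or WT replicate 3, and that of Nceh1 also without KO replicate 1 or WT replicate 1. The highest adjusted p was 0.343 for Nceh1 and 0.379 for Slc16a1.

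Cidec, which fuses lipid droplets and is expressed in adipocytes and in fatty hepatocytes, had 6.10, 8.65 and 20.2 CPM in KO livers, against 53.2, 31.5 and 55.7 CPM in WT livers. The groups did not overlap, but the test did not pass (log2 fold change -1.97, SE 0.44, adjusted p = 0.0623). Cidec is 1 of 10 adipocyte markers, which summed to 25.6, 24.1 and 37.4 CPM in KO livers, against 78.3, 48.9 and 78.5 CPM in WT livers. It is most of that sum in KO replicate 3 and the WT livers, while in KO replicate 1 Plin4, at 13.2 CPM, is larger. The defining adipocyte genes Adipoq, Plin1, Lep and Retn were at or near 0 in all 6 libraries, with no value above 0.174 CPM.

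**Figure D4:**
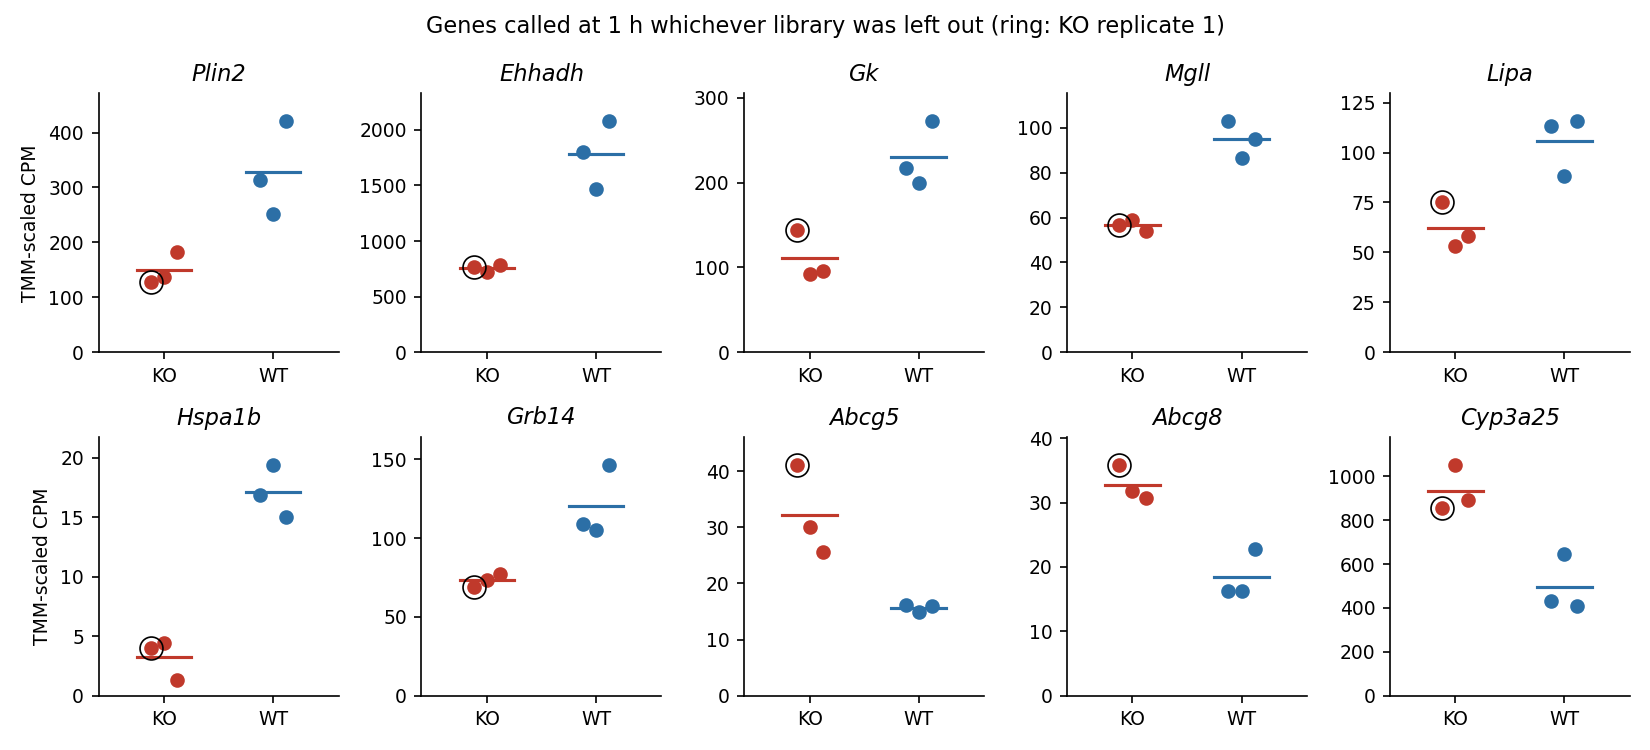
TMM-scaled CPM in each liver at 1 h for 10 of the 15 genes called whichever library was left out, KO left of WT, with a line at the mean of 3 mice and a ring around the library labelled KO 1 h replicate 1. In each panel the 3 KO livers do not overlap the 3 WT livers.

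Among the cytosolic heat shock genes, whose products refold damaged proteins, all 16 tested members had a log2 fold change below 0 (15 of 16 with counts on the gene strand, or without KO replicate 1, KO replicate 3 or WT replicate 3), with a median of -0.33 against 0.01 over all genes. Hspa1b, the inducible HSP70, was the 1 of 16 members that fell, against 0.356% of all tested genes. It had 4.01, 4.46 and 1.28 CPM in KO livers, against 16.9, 19.4 and 15.0 CPM in WT livers. All KO livers lay far below all WT livers, with KO replicate 3 the lowest. Its log2 fold change was -2.42 (SE 0.37, adjusted p = 0.00148, and 0.00431 to 0.00941 with a library left out). With KO replicate 1 as the only KO liver the list had a median of -0.25 and 0 calls, and Hspa1b had -2.09 (adjusted p = 0.15). Hspa1b has a near-identical neighbour, Hspa1a, so its reads are uncertain. In 7 of the 16 the KO livers lay wholly below WT, against 7.72% over all tested genes. Among these 7 were Hsph1 (log2 fold change -0.91, adjusted p = 0.162) and the constitutive Hspa8 (-0.34, 0.319), neither of which passed. Chordc1, a co-chaperone of HSP90, had 27, 16.1 and 14.7 CPM in KO livers, against 25.04, 27.8 and 36.02 CPM in WT livers. KO replicate 1 lay within the WT range, and Chordc1 passed only when it was left out (-0.94, adjusted p = 0.00874, against -0.64 and 0.158 with all libraries). At 3 h the heat shock list had a median of 0.45 with 3 higher calls, and Hspa1b was higher in KO there (log2 fold change 2.52, adjusted p = 0.0201). The 3 h values of this list without single libraries are not given here.

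Few genes of early signals were called, and lists of this size would hold few calls at the 0.492% called over all tested genes. Of 17 tested genes of the EGF receptor family and its ligands 0 were called, and of 12 ERK feedback inhibitors and targets 0 were called, with a median of 0.49 (0.54 without KO replicate 1, and 0.10 with it as the only KO liver). In 3 of the 12 ERK genes the KO livers lay wholly above WT, against 7.17% over all tested genes. In 3 they lay wholly below, against 7.72%. Among the ERK genes, Spred1 had a log2 fold change of 0.59 (adjusted p = 0.178), Spry4 0.75 (0.411), Epha2 -0.52 (0.36) and Myc 0.90 (0.3). Myc had 2.61, 5.81 and 7.78 CPM in KO livers, against 2.95, 2.71 and 3.31 CPM in WT livers, with KO replicate 1 below every WT liver. Without that library it had 1.19 (adjusted p = 0.0525), and 0.0459 when the filter on low counts was redrawn. Of 23 immediate early genes, switched on fast by growth factors and stress, 1 fell and 0 rose. This was Klf2, a zinc finger transcription factor best known from endothelium, at 5.23, 4.73 and 5.61 CPM in KO livers, against 11.5, 12.0 and 11.6 CPM in WT livers. The groups were tight and did not overlap (log2 fold change -1.17, SE 0.21, adjusted p = 0.00299, and 0.0558 without KO replicate 2). With KO replicate 1 as the only KO liver its adjusted p was 0.256, and the list had 0 calls. Liver endothelial markers summed to 272 to 292 CPM in KO and 286 to 325 CPM in WT, and none was called. Of the 12 tested, 11 had a log2 fold change below 0, with a median of -0.14 against 0.01 over all genes. Jun had 212, 238 and 198 CPM in KO livers, against 203, 263 and 193 CPM in WT livers, and Egr1 126, 240 and 198 CPM, against 191, 216 and 194 CPM. Both overlapped between genotypes.

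Of 18 hepatocyte transcription factors 1 fell, against 0.356% of all tested genes, and 2 fell without KO replicate 1, against 0.424%. Cebpa, a factor of hepatocyte identity and gluconeogenesis, had 38.2, 31.6 and 40.0 CPM in KO livers, against 69.1, 48.1 and 55.9 CPM in WT livers, without overlap (log2 fold change -0.66, SE 0.14, adjusted p = 0.0193, and 0.221 without KO replicate 2). Its call was also lost without WT replicate 1 or WT replicate 3. Id2, an inhibitor of basic helix-loop-helix factors, had 26.3, 32.7 and 26.5 CPM in KO livers, against 78.3, 36.5 and 48.1 CPM in WT livers (-0.93, SE 0.21, adjusted p = 0.0419, and up to 0.185 with a library left out). Its call held only when WT replicate 2 was the library left out. Bcl3, an IkB protein on the IL-6 and STAT3 list, fell by 1.69 on the log2 scale (adjusted p = 0.00239, and 0.0558 without KO replicate 2). It was the 1 call among 13 tested members of that list, against 0.492% of all tested genes.

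The other lower genes with large differences have no common list. Inhbe, the subunit of the liver-made activin E, had 21.4, 12.6 and 11.4 CPM in KO livers, against 91.5, 48.5 and 80.3 CPM in WT livers. Every KO liver lay below every WT liver, and WT replicate 2 was the WT liver nearest to KO. The log2 fold change was -2.30 (SE 0.41, adjusted p = 0.0147), with an adjusted p of up to 0.111 when KO replicate 2, KO replicate 3, WT replicate 1 or WT replicate 3 was left out. Grb14, an adaptor that binds and inhibits the insulin receptor, had 69.2, 73.7 and 77.3 CPM in KO livers, against 109, 105 and 147 CPM in WT livers (-0.71, SE 0.12, adjusted p = 0.00148). Its call held with each library left out. The laminin chain Lamb3 fell by 2.06 on the log2 scale (adjusted p = 0.00934), Cntnap1, a contactin-associated protein, by 1.77 (0.00234), the water channel Aqp4 by 1.55 (0.00876) and the torsin ATPase Tor3a by 1.18 (0.0193). The nicotinic receptor subunit Chrna2 fell by 1.03 (0.0424), Sel1l3 by 1.00 (0.00995) and the alcohol dehydrogenase Adh7 by 0.98 (0.00239). Without KO replicate 2 these 7 adjusted p-values were all above 0.05, and the highest with any library left out was 0.258, for Chrna2. The calls of Cntnap1 and Adh7 were lost in that case alone. Those of Lamb3, Aqp4, Tor3a, Chrna2 and Sel1l3 were also lost without WT replicate 3, those of Tor3a, Chrna2 and Sel1l3 without WT replicate 1, those of Aqp4, Tor3a and Sel1l3 without KO replicate 3, and those of Tor3a and Chrna2 without KO replicate 1. Of the Adh7 counts 53.8% were on its own strand.

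Dgkh, a diacylglycerol kinase, had 13.4, 14.9 and 12.2 CPM in KO livers, against 25.6, 20.7 and 24.1 CPM in WT livers (log2 fold change -0.80, SE 0.14, adjusted p = 0.0017). Hykk, hydroxylysine kinase, had 109, 94.8 and 93.5 CPM in KO livers, against 155, 150 and 167 CPM in WT livers (-0.67, SE 0.11, adjusted p = 0.00148). Atxn2, an RNA-binding protein, had 98.3, 92.5 and 95.8 CPM in KO livers, against 143, 139 and 141 CPM in WT livers (-0.56, SE 0.10, adjusted p = 0.00189). These 3, named after their values were seen, kept their calls with each library left out. In the fit of the 6 libraries alone Atxn2 did not pass (adjusted p = 0.0541, edgeR quasi-likelihood test). The smallest p of all belonged to the predicted gene Gm31388, with 12.5, 12.6 and 12.2 CPM in KO livers, against 26.8, 26.4 and 32.6 CPM in WT livers (-1.20, SE 0.14, adjusted p = 1.67e-05). Only 0.417% of its counts lay on its own strand, so they may belong to a transcript on the opposite strand. Of the 65 called genes, 9 are predicted genes named by number.

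Higher in KO was the pair Abcg5 and Abcg8, whose products form the transporter that exports cholesterol and plant sterols into bile. They were the 2 calls among 18 tested genes of bile acid synthesis and transport, against 0.136% called higher over all tested genes. The median of that list was 0.07. Abcg5 had 41.1, 30.01 and 25.5 CPM in KO livers, against 16.1, 15.0 and 16.0 CPM in WT livers. Abcg8 had 35.9, 31.8 and 30.7 CPM in KO livers, against 16.2, 16.3 and 22.8 CPM in WT livers. Neither gene overlapped between the groups, and the library labelled KO 1 h replicate 1 was the highest in both. The log2 fold change was 1.03 for Abcg5 (SE 0.18, adjusted p = 0.00229) and 0.84 for Abcg8 (SE 0.14, adjusted p = 0.00148). Without KO replicate 1 it was 0.82 for Abcg5 (0.0183) and 0.77 for Abcg8 (0.00904). With that library as the only KO liver it was 1.39 for Abcg5 (0.00427) and 0.97 for Abcg8 (0.0348). Cyp8b1, the sterol 12-alpha-hydroxylase of the same list, had 141, 134 and 183 CPM in KO livers, against 218, 228 and 216 CPM in WT livers, without overlap, and did not pass (-0.53, adjusted p = 0.184).

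The 2 genes are divergent neighbours, and the DNA between them is shown because both rose. In RefSeq (GRCm38.p6, not the build of the counts) their starts lie 110 bases apart on chromosome 17, Abcg8 on the plus strand and Abcg5 on the minus strand. The window of Abcg8, from 250 bases before to 50 after its start, is chr17:84682871-84683170, plus strand, and shares 209 bases with that of Abcg5. Capitals mark the 111 bases that run from the start of Abcg5 to the start of Abcg8.
Abcg8: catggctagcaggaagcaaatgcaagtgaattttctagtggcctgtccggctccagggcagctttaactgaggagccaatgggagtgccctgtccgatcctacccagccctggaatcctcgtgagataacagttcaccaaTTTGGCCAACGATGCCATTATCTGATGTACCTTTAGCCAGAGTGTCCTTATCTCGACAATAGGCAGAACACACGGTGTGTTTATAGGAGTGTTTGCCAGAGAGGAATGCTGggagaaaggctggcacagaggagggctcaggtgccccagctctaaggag
RefSeq windows were found for 49 of the 65 called genes and 9621 of the tested genes. Among these tested genes, 531 pairs on opposite strands had overlapping windows. In 1 pair, Abcg5 and Abcg8, both genes were called, and in 5 pairs 1 gene was.

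Drug metabolism genes gave a few higher calls. Cyp3a25 and Cyp3a59, cytochromes P450 of the family that oxidises many drugs, were the 2 calls among 26 tested genes of phase I metabolism. Over all tested genes 0.136% were called higher. The median of the list was 0.20. Without KO replicate 1 the median was 0.07 with 1 call, and with it as the only KO liver 0.30 with 0 calls. Cyp3a25 had 855, 1053 and 892 CPM in KO livers, against 430, 644 and 407 CPM in WT livers (log2 fold change 0.92, SE 0.16, adjusted p = 0.00166, and 0.000171 to 0.0372 with a library left out). Cyp3a59 had 51.1, 60.2 and 41.3 CPM in KO livers, against 15.9, 26.3 and 16.7 CPM in WT livers (1.37, SE 0.29, adjusted p = 0.0404, and 0.0733 without KO replicate 1). Its call was also lost without KO replicate 2, WT replicate 1 or WT replicate 3, with an adjusted p of up to 0.261. In both genes the KO livers lay above all WT livers. The family members are alike in sequence, so reads may be split between them. The genes that activate acetaminophen were not called (0 of 7 tested, against 0.492% of all tested genes). Cyp2e1 had 2681, 2482 and 2111 CPM in KO livers, against 2502, 2212 and 2232 CPM in WT livers, and Cyp1a2 had 108, 99.8 and 108 CPM, against 97.9, 114 and 112 CPM. Both overlapped. Por, the reductase that feeds electrons to cytochromes P450, had a log2 fold change of 0.33 (adjusted p = 0.281).

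Of 22 tested genes of acetaminophen conjugation, through glucuronide, sulfate and glutathione, 2 rose, against 0.136% of all tested genes, and 0 fell. Of the 22, 19 had a log2 fold change above 0, and the median was 0.35. In 7 the KO livers lay wholly above WT, against 7.17% over all tested genes. Papss2, which makes the sulfate donor PAPS, had 170, 164 and 132 CPM in KO livers, against 92.4, 126 and 83.8 CPM in WT livers (0.63, SE 0.13, adjusted p = 0.0163, and 0.0706 without KO replicate 1). The glutathione transferase Gstt3 had 16.7, 19.5 and 22.6 CPM in KO livers, against 13.5, 11.0 and 10.3 CPM in WT livers (0.76, SE 0.16, adjusted p = 0.0163). Neither overlapped. The call of Papss2 was also lost without KO replicate 2, WT replicate 1 or WT replicate 3, with an adjusted p of up to 0.246. That of Gstt3 was lost without KO replicate 2, KO replicate 3, WT replicate 2 or WT replicate 3, with an adjusted p of up to 0.176. Gsta3 (0.54, adjusted p = 0.334) and Gstm1 (0.51, 0.373) did not pass, although all KO livers lay above all WT livers. KO replicate 1 was the highest library for both. The list median was 0.23 without KO replicate 1 and 0.49 with it as the only KO liver, with 1 and 0 calls.

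Among regulators, Foxo3, a forkhead factor restrained by insulin and growth factor signalling, had 65.9, 57.9 and 50.1 CPM in KO livers, against 30.3, 40.2 and 21.2 CPM in WT livers. The groups did not overlap (0.92, SE 0.18, adjusted p = 0.00892), and the call was lost without KO replicate 2 (0.0581) or WT replicate 3 (0.0838). Map2k6, the kinase that activates p38, had 5.40, 5.95 and 6.50 CPM in KO livers, against 2.28, 2.00 and 2.48 CPM in WT livers (1.41, SE 0.31, adjusted p = 0.0233, and up to 0.101 with a library left out). Its call held only when KO replicate 1 was the library left out. Also higher were the Notch coactivator Maml3 (1.20, 0.0285), the spindle checkpoint gene Mad1l1 (0.88, 0.0428), the kynurenine aminotransferase Kyat1 (0.75, 0.0428) and Rhobtb1 (0.70, 0.0111). The mitochondrial protein Fam210a (0.68, 0.00229), Mocs1 of molybdenum cofactor synthesis (0.55, 0.0424) and Gch1 of tetrahydrobiopterin synthesis (0.49, 0.0326) were higher as well. All 7 lost their calls without KO replicate 2, with adjusted p-values of up to 0.34 (Maml3 and Mad1l1) when 1 library was left out. The call of Fam210a was lost in that case alone. Without WT replicate 3 the calls of Maml3, Mad1l1, Kyat1, Rhobtb1 and Gch1 were lost, and without WT replicate 1 those of Maml3, Mad1l1, Kyat1, Mocs1 and Gch1. Without WT replicate 2 those of Maml3, Mad1l1 and Mocs1 were lost, without KO replicate 1 those of Kyat1, Rhobtb1, Mocs1 and Gch1, and without KO replicate 3 those of Kyat1, Mocs1 and Gch1. Dmbt1, described above among the epithelial genes, was the call with the largest log2 fold change (7.79), and with KO replicate 1 as the only KO liver it had a log2 fold change of -0.47 (adjusted p = 0.963). Its call was lost without KO replicate 2 (0.0558), WT replicate 1 (0.0652) or WT replicate 3 (0.0838).

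Most lists held no call, and with 0.492% of all tested genes called, an empty list says little about its genes. In all, 11 of 43 pathway lists and 1 of 15 cell type lists, that of bile duct and gallbladder epithelium with Dmbt1, held a called gene. Of 26 acute phase genes 25 had a log2 fold change above 0, with a median of 0.36, but 0 passed. In 8 of the 26 the KO livers lay wholly above WT, against 7.17% over all tested genes. The number above 0 was 24 when scaled by library size alone, 23 without KO replicate 1 and 22 without KO replicates 2 and 3. It ran from 22 to 26 with each 1 h library left out. In each of the fits without WT replicate 1, without WT 0 h replicate 2 and with DESeq2, 1 gene was called higher. Saa2, a serum amyloid, was at 64.5 CPM in KO replicate 1 and at 2.70 and 2.42 CPM in KO replicates 2 and 3, against 0.938 to 2.85 CPM in WT livers. Kupffer cell markers had a median of 0.47, but 0 passed. In 6 of the 12 the KO livers lay wholly above WT, against 7.17% over all tested genes. The median was 0.30 without KO replicate 1 and 0.71 with it as the only KO liver. Their summed level was 128, 98.5 and 89.6 CPM in KO livers, against 69.4, 80.0 and 76.7 CPM in WT livers, highest in KO replicate 1. Clec4f, a marker of resident Kupffer cells, had a log2 fold change of 0.42 (adjusted p = 0.435). The 13 mitochondrial mRNAs had a median of -0.15 and 0 calls, and -0.04 with KO replicate 1 as the only KO liver.

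The genotype differences at 1 h were set beside those at the other times, which come from other mice. At 0 h 2 genes were called (0.0151%), at 3 h 129 (0.977%; 43 higher, 0.326%, and 86 lower, 0.651%; 9 to 330 genes with 1 of its 6 libraries left out) and at 12 h 7 (0.053%). None of the 65 genes was called in the same direction at another time, and 3 of the lower genes (Hspa1b, Adh7 and Gm4274) were called higher in KO at 3 h. The 47 lower genes had a median log2 fold change of -0.82 at 1 h, against 0.12 at 0 h, 0.27 at 3 h and 0.16 at 12 h, and 13, 7 and 9 of them were below 0 at these times. The 18 higher genes had 0.90 at 1 h, against -0.14, -0.03 and -0.14, and 3, 8 and 4 of them were above 0. The difference at 1 h minus the mean of the other 3 differences was itself tested. It was called for 162 genes (1.23%), among them 57 of the 65, which is not independent support because the contrast uses the same 1 h livers that chose the genes. Plin2 differed by -1.58 (SE 0.20, adjusted p = 4.34e-05), Gk by -1.25 (SE 0.17, adjusted p = 0.000133) and Abcg5 by 1.31 (SE 0.21, adjusted p = 0.000558) on the log2 scale.

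**Figure D5:**
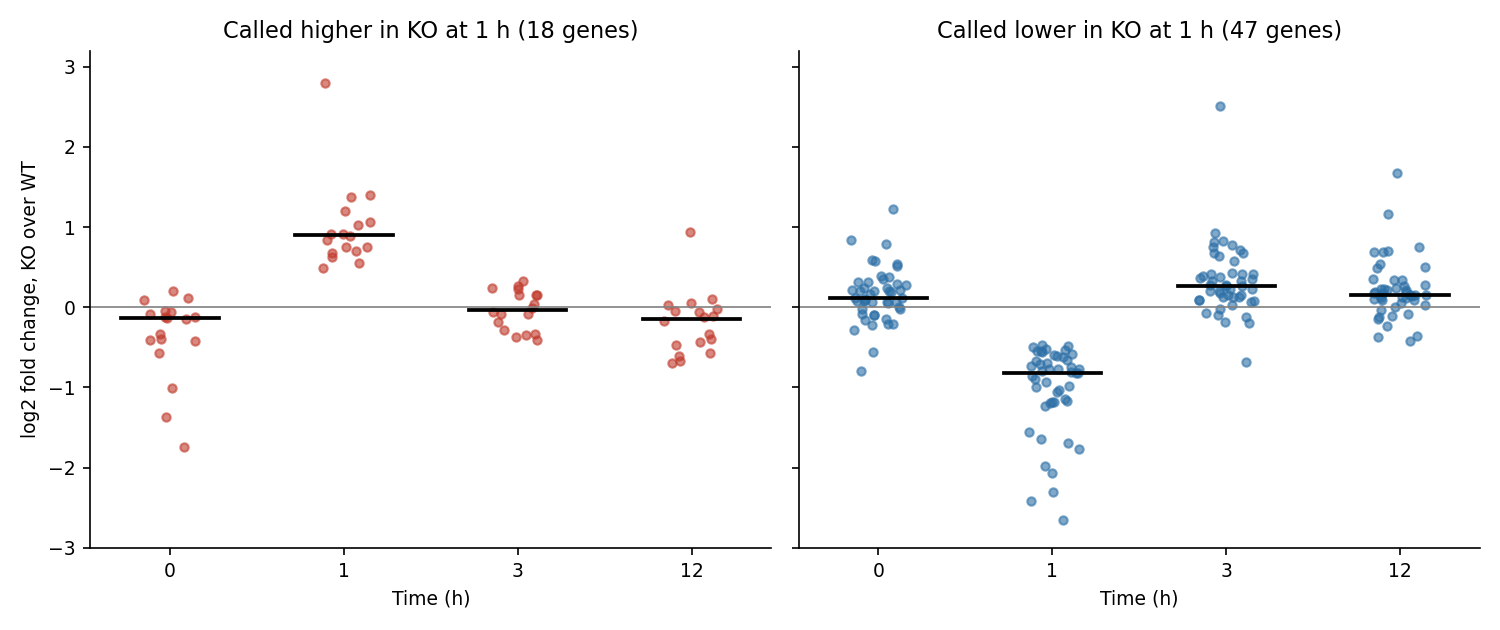
Log2 fold change of KO over WT at 0, 1, 3 and 12 h for the 18 genes called higher (left) and the 47 called lower (right) at 1 h, with a line at each median; the 1 h values chose the genes. Medians at the other times lie between -0.14 and 0.27, and Dmbt1 at 1 h (7.79) is off the axis.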

How the data were processed

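RNA of 24 mouse livers was sequenced, 3 for each of 8 groups of genotype and time. The deposited files hold whole-number read counts per gene, made by the authors with STAR against mm39 per the submitters' processing notes; its version and the gene models were not given in the sources used here. Of the 3 count columns, the unstranded one was used, so reads of a gene and its antisense partner cannot be told apart; 4 lines that name no gene (reads without a feature, ambiguous, unmapped or multimapping) were left out. On genes the 6 libraries at 1 h hold 5.64 to 7.48 M counts, 19.2% to 22.5% of reads.

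All 24 libraries entered 1 fit in R 4.3.3 with edgeR 4.0.16 (filterByExpr, TMM, robust quasi-likelihood, 16 residual degrees of freedom), with Benjamini-Hochberg adjustment over 13204 of 50657 gene symbols and calls at 0.05. The labels give individual mice and nothing on batches. For Egfr an exact permutation test on log2(CPM + 1) was added. On simulated counts for 12980 genes of this comparison, 87 of 100 genes changed by 2-fold and 100 of 100 changed by 4-fold were recovered, with 6 false calls. The changed genes were drawn from those with a mean of at least 5 CPM. The simulated KO 1 h libraries shared the same mean per gene, so the differences among the real KO libraries were not simulated. Alternatives were RLE factors, library size alone, other filters, the gene-strand column, a replicate block, the compared groups alone, DESeq2 1.42.0 and leaving out libraries.

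Members and lists were chosen with earlier results of these data known. The naming rule takes up to 15 genes a direction by size, with at least 5 CPM and no overlap, and called members and up to 3 members of smallest p from each of 58 lists; it gives 173 genes, of which a part is described; some genes are not reported here. Replicate numbers were not used to pair the mice in the main fit. Sequence came from RefSeq.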

Additional observations from a re-analysis of the deposited data

Results flagged for a closer look

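The genotype difference at 1 h was compared with the mean of the differences at 0, 3 and 12 h for the 69 genes whose values were followed through all settings (edgeR quasi-likelihood test of the contrast, Benjamini-Hochberg adjustment over all genes). For 49 of them the difference itself passed, 34 lower and 15 higher at 1 h. Many were chosen for their 1 h values, which enter this contrast, so these are descriptions and not independent support. No cause was tested. Values are log2 differences, 1 h minus the other times.

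Among genes of lipid and sugar use the values were -2.83 for Cidec, -2.22 for Acot2, -1.58 for Plin2, -1.50 for Ehhadh, -1.37 for Pex11a and -1.25 for Gk. They were -1.03 for Mgll, -0.87 for Elovl5, -0.83 for Nceh1, -0.83 for Lipa, -0.82 for Hsdl2, -0.60 for Hadha, -0.57 for Acadl and -0.50 for Creb3l3. Cidec, Acadl and Creb3l3 did not pass at 1 h alone. Heat shock genes gave -3.37 for Hspa1b, -1.59 for Hsph1, -1.01 for Chordc1 and -0.59 for Hspa8. Of these only Hspa1b passed at 1 h alone, and it was also called at 3 h in the opposite direction.

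Among regulators and signalling genes the values were -2.78 for Inhbe, -2.29 for Bcl3, -1.60 for Id2, -1.46 for Klf2, -0.91 for Grb14, -0.83 for Cebpa and -0.77 for Dgkh. The other lower genes were Aqp4 at -2.18, Cntnap1 at -2.14, Adh7 at -1.39, Chrna2 at -1.37, Gm31388 at -1.30, Tor3a at -1.29, Sel1l3 at -1.28, Hykk at -0.82 and Atxn2 at -0.67.

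Higher at 1 h than at the other times were Map2k6 by 1.97, Cyp3a59 by 1.70, Maml3 by 1.55, Abcg5 by 1.31, Mad1l1 by 1.28, Foxo3 by 1.18, Cyp3a25 by 1.00, Rhobtb1 by 0.89, Kyat1 by 0.86 and Clec4f by 0.86. Abcg8 differed by 0.79, Gstt3 by 0.78, Fam210a by 0.71, Mocs1 by 0.59 and Gch1 by 0.50. Clec4f did not pass at 1 h alone.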

How the results depend on the processing

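The 65 calls at 1 h (18 higher, 47 lower) came to 63 to 67 with RLE factors, library size alone, a 1 CPM filter, the gene-strand column, ribosomal RNA loci removed or a replicate block. They came to 230 (96 higher, 134 lower) without a filter, 98 (32 higher, 66 lower) with DESeq2 and 41 (13 higher, 28 lower) with the 6 libraries alone. After seeing the data, further settings were added: 104 calls (46 higher, 58 lower) without KO replicate 1 and the filter redrawn, and 9 (5 higher, 4 lower) without KO replicates 2 and 3. There Dmbt1 reversed to -0.47. Leaving out each of 24 libraries gave 15 to 88 calls, 3 to 29 higher and 12 to 63 lower; the cause was not tested. The Egfr difference ran from -1.38 to -0.73 with a 1 h library left out. Its exact permutation p was at or above 0.1 in all settings, and no setting allowed a value below 0.1.

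At 0 h the 2 calls became 95 without a filter, 1 with the gene-strand column, 13 without KO 1 h replicates 2 and 3, 21 without WT 3 h replicates 2 and 3, 8 with KO 1 h replicate 1 left out and the filter redrawn, 13 with the 2 groups alone and 24 with DESeq2, and 1 to 19 with a library left out. At 3 h the 129 calls became 254 without a filter, 26 without WT 3 h replicates 2 and 3, 46 with the 2 groups alone, and 9 to 330 with a library left out. At 12 h the 7 calls became 78 without a filter, 2 with the gene-strand column, 12 without WT 3 h replicates 2 and 3, 28 with the 2 groups alone and 22 with DESeq2, and 1 to 37 with a library left out. The 162 calls of the 1 h difference minus the others became 339 without a filter and 51 without KO replicates 2 and 3, and 56 to 344 with a library left out. With library size alone the share of higher calls was 18.5% against 37.0% for that contrast, 49.3% against 33.3% at 3 h and 22.2% against 0% at 12 h.

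Same-numbered KO and WT deviations correlated at -0.168, -0.013 and -0.0404, and those with different numbers at -0.0921 to 0.127. The labels state no pairing of the mice, and such correlations cannot show whether there was one. With the replicate block 67 genes were called at 1 h and 9 at 0 h, and the Egfr difference was -0.98. Of the 46 called genes followed through all settings, 42 were called with the block, 46 with DESeq2 and 26 with the 6 libraries alone.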
